A study of Mus musculus with 12 samples.

Results

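Cth and Vnn1 encode a pair of liver enzymes that release small thiols, and their transcripts were followed in mouse liver after bulaquine, an antimalarial 8-aminoquinoline that the body converts to primaquine. The spots were selected on their annotation as Cth or Vnn1 and on a corrected intensity above 0 in both dyes on all 12 arrays. Each gene had 1 such spot, so 2 spots of the 23040 on the array and of the 11749 that met the same intensity condition were described. The genes were taken up with earlier results of these data known, so the p-values of Cth at 24 h, which had been seen, describe it and are not independent evidence.

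Cth is cystathionine gamma-lyase, the last enzyme of transsulfuration, the route by which hepatocytes turn the sulfur of methionine into cysteine. Cysteine is the limiting building block of glutathione, and the same enzyme also releases hydrogen sulfide. Vnn1 is vanin-1, a membrane-anchored pantetheinase that splits pantetheine into pantothenate, the precursor of coenzyme A, and the aminothiol cysteamine. In mouse liver Vnn1 is known as a target of the fatty acid receptor PPAR alpha, and Cth as a target of ATF4, the transcription factor of the amino acid response.

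Liver RNA of bulaquine-treated and vehicle-treated mice was co-hybridized on spotted 2-colour arrays, 4 arrays at each of 6, 12 and 24 h after the drug. On the arrays called F1 and F2 the drug-treated liver was in Cy5, and on R1 and R2 it was in Cy3. The labels describe both groups as mouse livers on free food and water, and give no strain, sex, age, dose or vehicle. The design text gives n = 4 mice, but the labels do not tie arrays to animals, so the p-values speak only to variation from array to array, part of which may be technical.

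The identity of both spots rests on an inferred order, because the 48 blocks of 480 spots run in a different order in the scanner files and in the probe annotation. The order was chosen so as to place the metallothionein genes Mt1 and Mt2 on spots that read higher at 6 h. These genes code for metal-binding proteins rich in thiols. Their spots rose by 1.46 and 2.07 on the log2 scale (limma adjusted p = 0.0012 and 0.00073). Because these spots fixed the choice, their ratios and p-values are no evidence for the order. A second Mt2 spot rose by 1.08 (adjusted p = 0.015). Read at the numbers as deposited, the spots for Cth and Vnn1 would have 24 h log2 ratios of 0.27 and -0.16, neither called.

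The tissue label could be set against 4 measured hepatocyte markers of 8 listed (Alb, Ttr, Apoa1 and Apob). Their spots lay between the 90.68th and 99.98th brightness percentile of all array spots with a value, tested or not. Among the tested spots only, the Cth spot was bright, at the 79.96th percentile. The Vnn1 spot was dim, at the 20.28th percentile of the same tested spots, so these percentiles and those of the markers have different bases.

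Cth transcript was higher in drug-treated than in vehicle-treated liver on all 4 arrays at 24 h. At 24 h the log2 ratio of drug over vehicle was 0.81 on F1, 1.08 on F2, 0.42 on R1 and 0.35 on R2. At 6 h it was 0.21, 0.29, 0.02 and 0.00 on the same array labels. At 12 h it was 0.07, 0.29, -0.06 and -0.18. The arrays with the drug in Cy5 read higher than those with the drug in Cy3 at each time point, and the spot had a fitted dye effect of 0.18 toward Cy5 (limma adjusted p = 0.030). With that dye effect removed, the 24 h ratios were 0.63, 0.89, 0.60 and 0.54, and the 8 arrays of the earlier times ranged from -0.11 to 0.20. The share of all tested spots with such a gap was not counted, so the gap is not read as particular to Cth.

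The fitted Cth ratio at 24 h was 0.66 on the log2 scale (SE 0.094, n = 4 arrays), a 1.59-fold higher level with a 95% interval of 1.37 to 1.83. In RNA of whole liver, more cells of a type and more RNA per cell cannot be told apart. It passed the threshold of 0.05 (limma, Benjamini-Hochberg adjusted p = 0.015 over 11749 spots). Of the 2 member spots, Cth was the 1 called at 24 h, where 0.477% of all tested spots were called. At 6 h the ratio was 0.13 and at 12 h 0.03, with the same SE and adjusted p-values of 0.86 and 0.95. Neither member was called at 6 h or 12 h, where 0.102% and 0.460% of tested spots were.

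The change of the Cth ratio between times was tested directly. The ratio at 24 h exceeded that at 12 h by 0.63 (SE 0.13, limma adjusted p = 0.13) and that at 6 h by 0.53 (adjusted p = 0.23), and 12 h differed from 6 h by -0.10 (adjusted p = 0.93). No member was called in these differences, where 0.179%, 0.187% and 0.400% of tested spots were called in the same order. The Cth call at 24 h was lost when array F1, F2 or R1 of 24 h was left out (log2 ratio 0.68, 0.58 and 0.69, adjusted p = 0.097, 0.13 and 0.067), and when the dye effect was not fitted (adjusted p = 0.23).

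**Figure D1:**
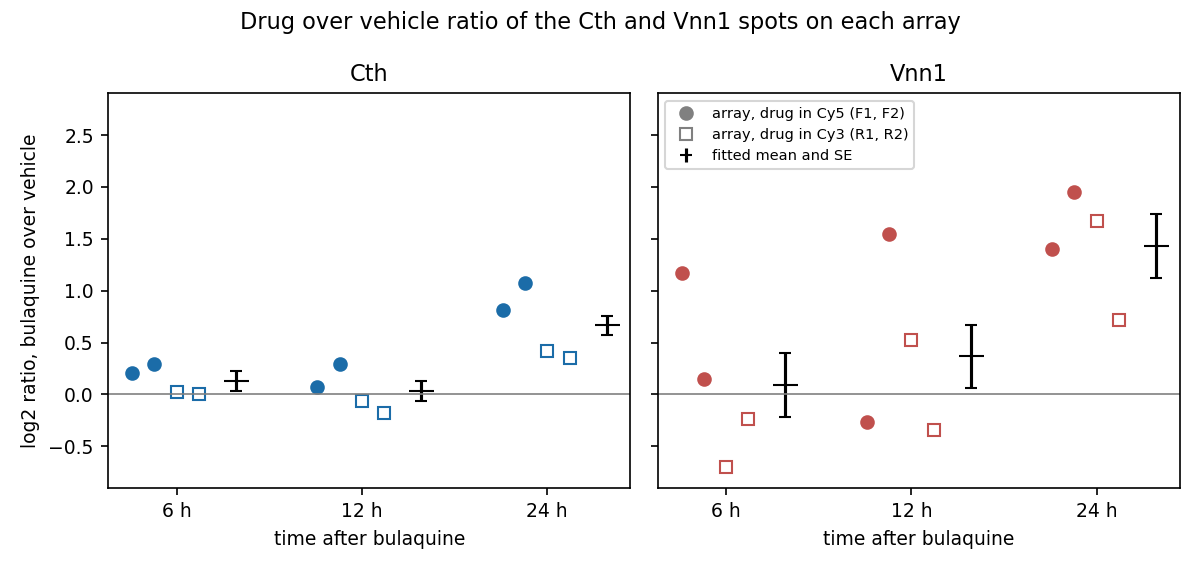
Log2 ratio of drug over vehicle (y axis) of the Cth and Vnn1 spots on each of 12 arrays, by time in hours (x axis). Filled circles are arrays with the drug in Cy5, and open squares arrays with the drug in Cy3. Black bars are the fitted mean of 4 arrays and its SE. That SE comes from 1 fit over all 12 arrays and is the same at each time. Cth is tight around 0 at 6 and 12 h and lies between 0.35 and 1.08 at 24 h, whereas Vnn1 spreads from -0.70 to 1.54 at 6 and 12 h and from 0.71 to 1.95 at 24 h.

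Vnn1 read higher in the drug channel on all 4 arrays at 24 h, but the difference missed the threshold over all spots. Its log2 ratios at 24 h were 1.40 on F1, 1.95 on F2, 1.67 on R1 and 0.71 on R2. At 6 h they were 1.17, 0.15, -0.70 and -0.24. At 12 h they were -0.26, 1.54, 0.52 and -0.34. The earlier times thus each held 2 arrays above 0 and 2 below. With the fitted dye effect of 0.36 removed (adjusted p = 0.16), the 24 h ratios were 1.04, 1.59, 2.03 and 1.07, and array F2 of 12 h, at 1.18, lay within their range.

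The fitted Vnn1 ratio was 1.43 at 24 h (SE 0.31, n = 4 arrays), and was not called (limma adjusted p = 0.097). No fold is given for it, because the vehicle channel was hardly above its background at that time. At 6 h it was 0.09 and at 12 h 0.37, with adjusted p-values of 0.99 and 0.76. The 24 h ratio exceeded that at 6 h by 1.34 (SE 0.44, limma adjusted p = 0.38) and that at 12 h by 1.07 (adjusted p = 0.51). The SE of the Vnn1 spot was above that of 66.81% of tested spots, and the SE of the Cth spot above that of 3.754%. The Vnn1 difference was 1.43 with the deposited corrected intensities, 0.32 with no background subtracted (adjusted p = 0.29) and 0.27 after normexp correction (adjusted p = 0.16), which also adds an offset of 50 to each intensity. What lowers the value was not tested. Without array F2 of 12 h, which had the most spots at 0 of all arrays (24.5%), the Vnn1 ratio at 12 h was 0.06, and without array F1 of 12 h it was 0.74. Without array R1 of 12 h it was 0.17, and without array F1 of 6 h the ratio at 6 h turned to -0.17.

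The channels behind these ratios showed how far each spot stood above its surroundings. At the Cth spot the foreground was 5.73 to 13.7 times the local background in the vehicle channel and 6.45 to 16.6 times in the drug channel over the 12 arrays. At the Vnn1 spot the vehicle foreground at 24 h was 1.43, 1.25, 1.15 and 1.25 times its background on F1, F2, R1 and R2. The drug foreground on these arrays was 2.03, 1.85, 1.89 and 1.69 times its background. The scanner's signal-to-noise score of the Vnn1 vehicle channel was 0.21 to 0.47 at 24 h, against 5.94 to 23.3 for the Cth vehicle channel over all arrays. The Vnn1 vehicle signal at 24 h was therefore a small difference between foreground and background on every array.

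The normalized level of each channel, scaled to a common distribution across arrays, was set side by side for each gene without a test. The Cth vehicle channel had a log2 intensity of 12.85 ± 0.21 at 6 h, 13.01 ± 0.15 at 12 h and 12.74 ± 0.30 at 24 h (mean ± SD, n = 4). The Cth drug channel stood at 12.98 ± 0.23, 13.04 ± 0.17 and 13.40 ± 0.26. Between 12 and 24 h the mean of the Cth drug channel thus moved by 0.36 and that of its vehicle channel by -0.27.

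The Vnn1 vehicle channel had a log2 intensity of 9.67 ± 0.75 at 6 h, 9.63 ± 0.41 at 12 h and 8.13 ± 0.65 at 24 h (mean ± SD, n = 4). The Vnn1 drug channel stood at 9.76 ± 0.69, 10.00 ± 1.22 and 9.57 ± 0.40. At 24 h the vehicle channel of Vnn1 differed from its 6 h mean by -1.54 on the log2 scale, while the drug channel differed from its 6 h mean by -0.20. All 4 vehicle values at 24 h, 7.33 to 8.84, lay below the lowest earlier vehicle value of 9.04. The share of all tested spots with such a gap was not counted. With signal-to-noise scores of 0.21 to 0.47, these vehicle values are too near background to show which channel carries the 24 h ratio. The labels do not say whether each time had its own vehicle animals.

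**Figure D2:**
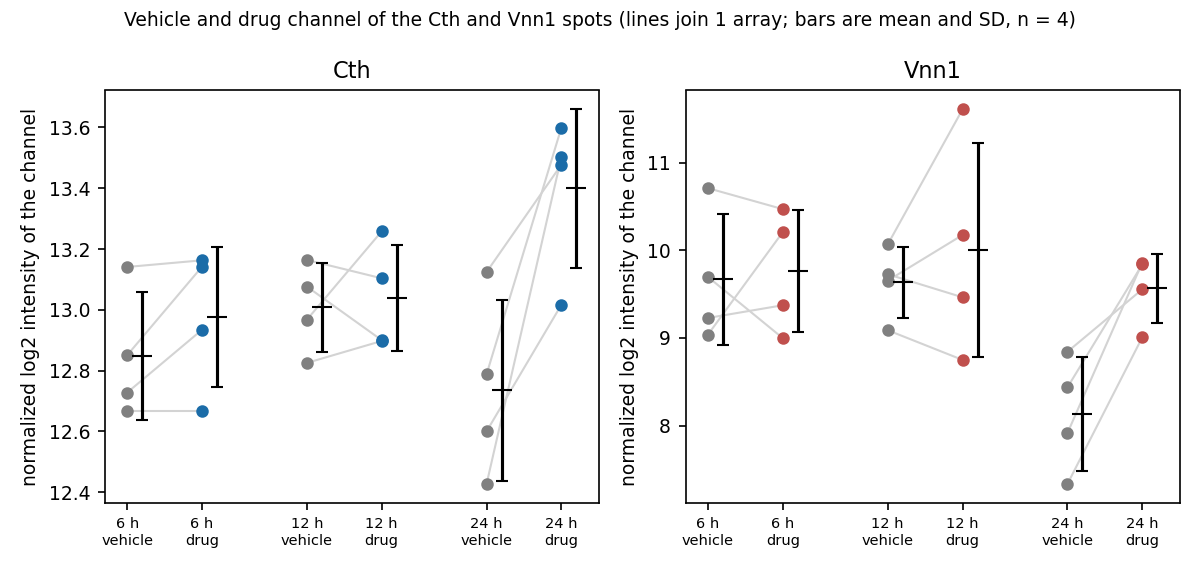
Normalized log2 intensity (y axis) of the vehicle channel (grey) and the drug channel (coloured) of the Cth and Vnn1 spots at 6, 12 and 24 h. Each line joins the channels of 1 array, and black bars are the mean and SD of 4 arrays. For Vnn1 the 24 h vehicle values, mean 8.13, sit below those of the other times while the drug values, mean 9.57, lie within their earlier range.

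Across the 12 arrays the dye-corrected ratios of Cth and Vnn1 had a Pearson r of 0.72 and a Spearman rho of 0.62, given as a description because both ratios come from the same hybridizations. Within a time point r was -0.79 at 6 h, 0.97 at 12 h and 0.25 at 24 h, over 4 arrays each. Vnn1 ranked 167th of 7828 other spots with 1 gene symbol by likeness to Cth.

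The genes whose ratios most resembled that of Cth over the 12 arrays were Cntnap2 (r = 0.96), a neuronal adhesion protein, Tnc (0.95), the matrix glycoprotein tenascin C, Irak1 (0.94), which relays signals from interleukin-1 and Toll-like receptors, Ascc3 (0.93), a helicase, and Gdap1 (0.93), a mitochondrial outer membrane protein. Their 24 h log2 ratios were 1.56, 0.78, 0.74, 1.37 and 0.82. Tnc was not called at 24 h (limma adjusted p = 0.051), and the others were (0.011, 0.015, 0.015 and 0.013). Of all tested spots 0.477% were called. These spots were picked for likeness to Cth, which was itself higher at 24 h. Their 24 h ratios and calls thus follow from the choice and are no separate evidence. The values given are those of single spots: the other spot of Tnc read -0.13 at 24 h, those of Irak1 -0.34 and 0.06, and those of Ascc3 0.23, 0.36 and -0.13. For these other spots r is not given, and Cntnap2 and Gdap1 had 1 tested spot each. For Vnn1 the nearest spots were Gspt1 (r = 0.92), a translation termination factor, Chga (0.85), chromogranin A, Tcn2 (0.85), the cobalamin carrier transcobalamin 2, Slc35b2 (0.83), a transporter of the sulfate donor PAPS, and Ncaph2 (0.83), a condensin subunit. None of these 5 was called at 24 h, and their ratios ran from 0.21 for Chga to 1.18 for Ncaph2. The other spots of Gspt1, whose most alike spot read 0.43, stood at -0.33, -1.13 and -0.33, and those of Ncaph2 at -0.01 and -0.01.

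Upstream of Cth, the methionine cycle and transsulfuration list had 10 measured genes of 20. Cth was its 1 call at 24 h and no gene was called lower. With Cth counted, 6 genes were above 0 and 4 below, and the list median was 0.05, or 0.03 without Cth. Over all 5691 genes the median was 0.004, 50.73% were above 0 and 0.457% were called. Bhmt, which remethylates homocysteine with betaine and so keeps sulfur out of transsulfuration, read 0.60 at 24 h (SE 0.18, limma adjusted p = 0.22). Shmt1, the cytosolic serine hydroxymethyltransferase, read -0.81 (SE 0.21, adjusted p = 0.15), with its other spots at -0.34 and -0.67. Mat2b, a regulatory subunit of methionine adenosyltransferase, read 0.93 on one spot (adjusted p = 0.47) and -0.001 on the other. Cbs, the enzyme that makes the cystathionine that Cth cleaves, was not among the measured genes.

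Downstream of cysteine, 3 of 13 listed genes of cysteine breakdown, taurine and sulfide were measured, and none was called at any time. Of all genes 0.158%, 0.369% and 0.457% were called at 6, 12 and 24 h. Cdo1, the dioxygenase that commits cysteine to taurine and sulfate, read 0.38, -1.12 and 0.36 at 6, 12 and 24 h with an SE of 0.69. Its 12 h value rested on array F2, at -4.55 with the dye effect removed, against 0.58, -0.32 and -0.18 on the others. Sqor, which oxidizes sulfide in mitochondria, read 0.32 at 24 h (adjusted p = 0.48), and Got1, which can transaminate cysteine, -0.34 (adjusted p = 0.76).

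Of 27 listed genes of glutathione synthesis and recycling, 8 were measured. At 24 h 6 of them were above 0, the median was 0.18 and none was called. Over all genes at that time 50.73% were above 0 and 0.457% were called. Txnrd1, cytosolic thioredoxin reductase, had the highest value at 24 h, 0.57 (SE 0.17, limma adjusted p = 0.22). Its substrate Txn1 read 0.22, and Gpx1, a glutathione peroxidase, 0.24 with its other spot at 0.06. Gclm, the modifier subunit of the enzyme that joins cysteine to glutamate, read 0.06.

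Around Vnn1, 8 of 18 listed genes of the vanins, pantothenate and coenzyme A were measured, and none was called at 24 h. At that time 0.457% of all genes were called. With Vnn1 in the list its median was 0.19, and without it 0.10. Ppcs, which adds cysteine to phosphopantothenate, read 0.54 (adjusted p = 0.46), and Nudt7, a peroxisomal coenzyme A hydrolase, 0.53 (adjusted p = 0.72). The Nudt7 value rested on array R2, at 2.66 with the dye effect removed, against 0.04, 0.07 and -0.64 on F1, F2 and R1. Nudt19, another peroxisomal coenzyme A hydrolase, read -0.72 at 12 h (SE 0.16, adjusted p = 0.17) and -0.07 at 24 h. Slc5a6, the pantothenate and biotin transporter, read 0.73 at 6 h (adjusted p = 0.76) and 0.27 at 24 h.

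Known targets of PPAR alpha and ATF4 were also listed. With 0.457% of all genes called at 24 h, lists of this size would hold few or no calls at the background share, so nothing is read from their number. Of 27 listed PPAR alpha targets 8 were measured, Vnn1 among them, and none was called at 24 h. At that time 6 were above 0, Vnn1 included, where 50.73% of all genes were. The median was 0.11 with Vnn1 and 0.07 without it. Pex11a, a peroxisome proliferation factor, read 0.44 (adjusted p = 0.56), Acaa1a, a peroxisomal thiolase, 0.15, and Slc25a20, the carnitine carrier, 0.04. Cpt1a, the entry enzyme of mitochondrial fatty acid oxidation, read -0.24.

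Of 28 listed ATF4 targets and genes of the amino acid response, 16 were measured. Cth was the 1 gene called at 24 h. With Cth counted, 11 were above 0 and 5 below, with a median of 0.14, or 0.12 without Cth. Of all genes 50.73% were above 0 at that time. Atf4 itself read 0.16 at 24 h, Asns, the asparagine synthetase, -0.19, and Sars, the seryl-tRNA synthetase, 0.76 on one spot (adjusted p = 0.50) and 0.01 on the other. The Sars value of 0.76 rested on array R2, at 2.51 with the dye effect removed, against 0.30, -0.22 and 0.45 on F1, F2 and R1. Ddit4, an inhibitor of mTORC1, read 1.73 at 6 h (SE 0.38, limma adjusted p = 0.27) and 0.20 at 24 h. Vldlr, a lipoprotein receptor, read -0.12 at 24 h on the spot with the smallest p, and 0.05 and 0.13 on its other spots.

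NRF2 is the factor that responds to thiol-reactive and oxidative stress, and 15 of its 35 listed targets were measured. At 24 h none was called (8 above 0, 7 below, median 0.04). Of all genes 0.457% were called and 50.73% were above 0 at 24 h. At 6 h 12 of the 15 were below 0, where 49.69% of all genes were above 0 and 0.158% were called. At that time Gstm2, a glutathione S-transferase, fell by 1.01 on the log2 scale (SE 0.13, limma adjusted p = 0.028). The other 4 Gstm2 spots read 0.07, -0.66, -1.12 and -1.11 at 6 h. These 5 spots can share signal with near-identical Gstm genes, so the call cannot be placed on 1 gene. Ftl1, the ferritin light chain, read -0.68 at 6 h (limma adjusted p = 0.11), with its other spots at -0.34, -0.38, -0.32 and -0.59. Tkt, the transketolase, read 0.91 at 24 h (adjusted p = 0.074), with its other spots at 0.05, 0.12 and 0.57.

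**Figure D3:**
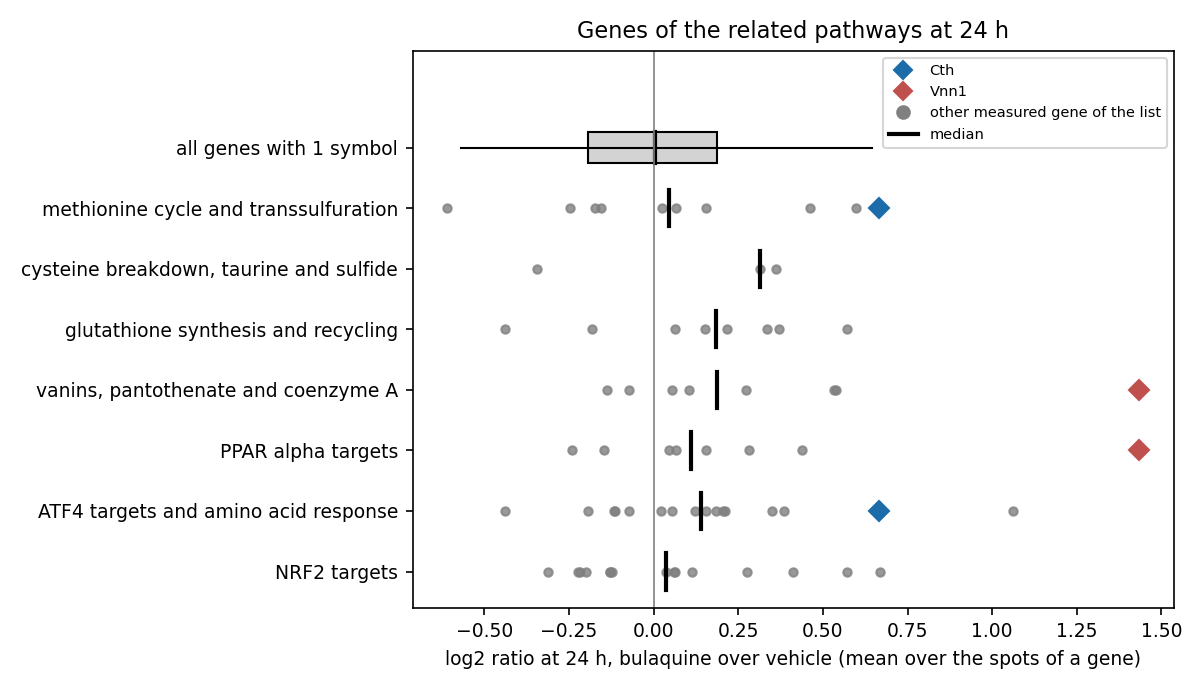
Log2 ratio of drug over vehicle at 24 h (x axis) of each measured gene of 7 lists (rows), as the mean over the spots of a gene. Black ticks are list medians, diamonds mark Cth and Vnn1, and the top box gives the quartiles of all 5691 genes with whiskers at the 5th and 95th percentile. The medians of the lists, with Cth and Vnn1 counted where listed, lie between 0.04 and 0.32. Cth at 0.66 and Vnn1 at 1.43 are to the right of them, as are other single genes such as Psph at 1.06 (SE 0.90) and Taldo1 at 0.67. By 24 h ratio the Cth spot ranked 645th of 11749 tested spots.

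None of the measured markers of liver cell types was called at 24 h. Of all genes 0.457% were called and 50.73% were above 0 at that time. For hepatocytes 4 of 8 were measured (2 above 0, median 0.06), and for macrophages and Kupffer cells 3 of 10 (3 above 0, median 0.27). For endothelium 3 of 5 were measured (1 above 0, median -0.05), and for stellate cells 4 of 5 (3 above 0, median 0.08). The hepatocyte markers went both ways at 24 h: Apob 0.60 (limma adjusted p = 0.12), Apoa1 0.22, Alb -0.11 and Ttr -0.36 (adjusted p = 0.26). The Apoa1 value had an SE of 1.15, so its sign gives no direction. Car2, the 1 measured erythrocyte marker of 9, read 1.05 at 24 h (SE 0.40, limma adjusted p = 0.31) and -0.81 at 6 h. Both neutrophil markers were below 0 (median -0.23), Cd3e, the lymphocyte marker, read -0.43, and no bile duct marker was measured. The part of these cells in the Cth and Vnn1 ratios was not tested.

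Other processing left the Cth ratio at 24 h between 0.55 and 0.68 over 14 alternatives on all arrays, and it was called in 10 of them. Besides the model without a dye effect, the call was lost when spots missing on some arrays were also tested (adjusted p = 0.051), when 24 h was fitted alone (0.52) and when each dye-swap pair was averaged (0.23). Vnn1 was called in none of the 13 alternatives that kept its spot, nor with any array left out (limma adjusted p = 0.065 to 0.32).

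**Figure D4:**
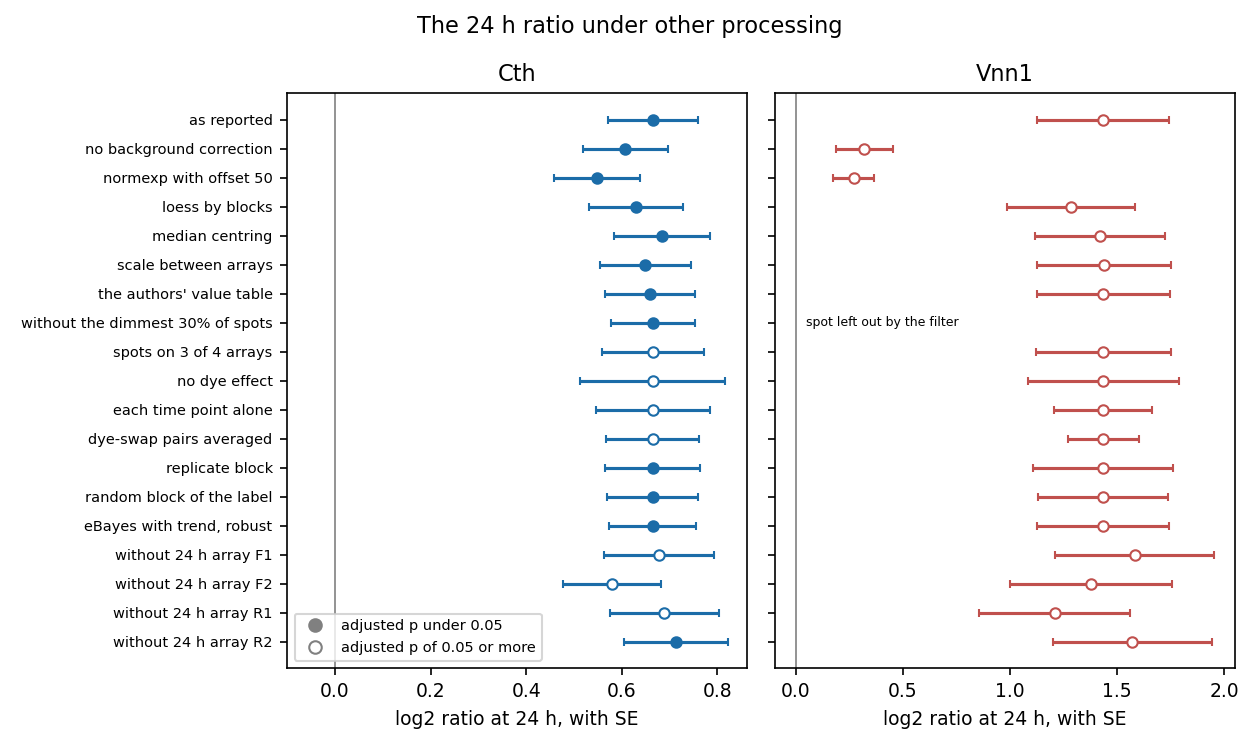
The 24 h log2 ratio with its SE (x axis) of Cth and Vnn1 under each processing setting (rows), and with each 24 h array left out. Filled points have an adjusted p under 0.05. Cth lies between 0.55 and 0.71 in the settings shown, and Vnn1 is at 0.32 without background correction and 0.27 after normexp, against 1.43 as reported.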

How the data were processed

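The deposited intensity columns held foreground, local background and corrected intensity per dye, and the authors' extraction software also gave a signal-to-noise score. Per the series' design text, arrays were scanned with ImageQuant 5.0, spots were quantified with ArrayVision 8.0, and LOWESS-normalized log ratios were made with Avadis 4. The authors' deposited log2 ratios, log2(Cy5/Cy3) by comparison with the intensities, served as an alternative.

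Corrected intensities of 0 were set to missing, and log2(Cy5/Cy3) was loess-normalized within each array. The 11749 spots over 0 in both dyes on all 12 arrays entered a single limma fit (version 3.58.1, under R 4.3.3) of 3 time terms signed by dye and a spot-wise dye term, with 8 residual degrees of freedom. A spot was called at an adjusted p (Benjamini-Hochberg) below 0.05. The script was also run on simulated data with independent noise on each array, which does not speak to RNA shared between arrays. Precision is limited by the number of arrays (median SE 0.22). Channel levels were scaled by Aquantile. Symbols came from GEO's platform annotation: 15114 spots had 1 gene, 206 several and 7720 none, and 14956 of the first were found in RefSeq's gene table.

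Labels were not used as a block. Deviations of same-labelled arrays were taken after time means and dye effects were removed, which itself draws their r below 0. That r thus cannot show that same-labelled arrays were independent. The members and lists were chosen with earlier results of these data known. Of each list the text names every called gene and the 3 with the smallest joint p over the times, and for each member the 5 most alike spots. Other named list genes were chosen after their values were seen.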

Additional observations from a re-analysis of the deposited data

Results flagged for a closer look

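No value of Cth or Vnn1 was flagged. Of 81 groups of 4 arrays examined for the named genes, 2 held an array far from the other 3, where chance gives about 1 in 20. For Txnrd1 at 6 h, array F2 read -0.38 against 0.25 to 0.38 on the others. For Slc25a20 at 6 h, array F1 read 0.52 against 0.02 to 0.04. The Gstm2 ratio differed between times by direct test, by 1.40 for 12 h minus 6 h and 1.27 for 24 h minus 6 h (limma adjusted p = 0.013 and 0.034).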

How the results depend on the processing

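The Cth ratio at 24 h kept its value of 0.66 but not its call when spots on 3 of 4 arrays were added (adjusted p = 0.051), without a dye effect (0.23), with 24 h alone (0.52) and with dye-swap pairs averaged (0.23). At the deposited spot numbers it was 0.27, and there the 24 h minus 6 h difference of Cth was -0.031 and Vnn1 read -0.16 at 24 h, -0.36 for 24 h minus 12 h and -0.24 for 24 h minus 6 h. The Cth 24 h minus 12 h difference was called without background correction (0.60, adjusted p = 0.038), and Cth at 12 h turned to -0.012 under loess by blocks. With arrays left out in turn, Cth ranged from 0.58 to 0.71 at 24 h and from -0.0025 to 0.085 at 12 h, and Vnn1 from 1.21 to 1.58 at 24 h, from -0.17 to 0.26 at 6 h and from -0.036 to 0.64 for 12 h minus 6 h. Arrays with the same label at other times had r from -0.22 to -0.08 in their deviations. That range cannot show independence, because removing the fitted dye effect itself draws r below 0. With the replicate block Cth at 24 h was 0.66 (limma adjusted p = 0.033) and Vnn1 1.43 (adjusted p = 0.16). Of all spots, limma called 56 at 24 h, 193 without background correction and 0 with 24 h alone (1073 at an unadjusted p under 0.05). The cause of these changes was not tested, and the Vnn1 spot, near its background, was left out with the dimmest 30% of spots.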
